A study of Mus musculus with 8 samples.

Results

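The myeloid C-type lectins described here are 10 receptor genes, Clec4a1, Clec4a2, Clec4a3, Clec4d, Clec4e, Clec4n, Clec5a, Clec9a, Clec10a and Clec12a, of the 36589 genes named on the array. They were picked by gene name: every probe that is not a control and whose gene name in the scanner output is one of the 10 was taken, which gave 14 of 56599 probes. Clec5a had 3 probes, Clec9a and Clec10a had 2 each, and the other 7 genes had 1. By the probes' positions on mouse build mm9, 9 of the genes lie on chromosome 6 and Clec10a lies on chromosome 11.

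The study measured how immune cells of the postnatal mouse brain respond to inflammation elsewhere in the body. Male C57BL/6N mice, labelled as 7 days of age, received saline or lipopolysaccharide (LPS, an outer membrane component of Gram-negative bacteria that activates TLR4), and cells were taken 24 h later. Brains were dissociated, 2 per tube from mice with the same treatment, and cells carrying CD11b, the integrin chain of microglia and other myeloid cells, were pulled out with magnetic beads, giving 4 saline and 4 LPS tubes with 1 array each. Strain, sex, age label and sort were shared by both groups, and the LPS dose, its route and whether the age is that at injection or at collection are not given in the sources used here.

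C-type lectin receptors of myeloid cells bind sugars, lipids or proteins of microbes and dying cells through extracellular lectin domains. Some, among them Mincle (Clec4e), MCL (Clec4d) and Dectin-2 (Clec4n), signal through the adaptor FcR gamma (Fcer1g), and MDL-1 (Clec5a) through DAP12 (Tyrobp). These adaptors recruit the kinase Syk, which acts through Card9, Bcl10 and Malt1. DCIR1 (Clec4a2) and MICL (Clec12a) instead carry an inhibitory motif that recruits phosphatases such as SHP-1 (Ptpn6).

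Per-array values below are log2 processed signals minus that array's 75th percentile, so a value of 0 is the signal that 75% of an array's probes stay under. They compare arrays for 1 probe and not 1 probe with another. Sums of signals over gene lists are of processed signals without this scaling. The 75th percentile signal was 169 to 202 on saline and 154 to 179 on LPS arrays. Differences between such sums thus include differences in array brightness. Changes are log2 LPS minus saline ± SE with n = 4 arrays per group, tested with limma over 22509 genes at a Benjamini-Hochberg adjusted p under 0.05. Of all genes tested, 49.3% were called by this rule, 27.8% as higher and 21.5% as lower after LPS. Against that background 6 of the 10 lectins were higher (Clec4e, Clec4d, Clec12a, Clec4a1, Clec4a3 and Clec5a), 2 were lower (Clec9a and Clec10a), and Clec4n and Clec4a2 did not pass. Changes of at least 2-fold were found in 5 lectins upward, where 3.58% of all genes reached that size, and in 2 downward, where 5.75% did. The median change of the 10 was 0.79 and that of all genes 0.02. The saline and LPS arrays did not overlap for 7 of the 10 lectins, 5 with LPS above and 2 with LPS below, against 44.7% of all genes, 25.8% above and 18.9% below. Clec9a passed the filter on dim probes through its saline arrays, so its inclusion in these counts is not support for a fall.

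**Figure D1:**
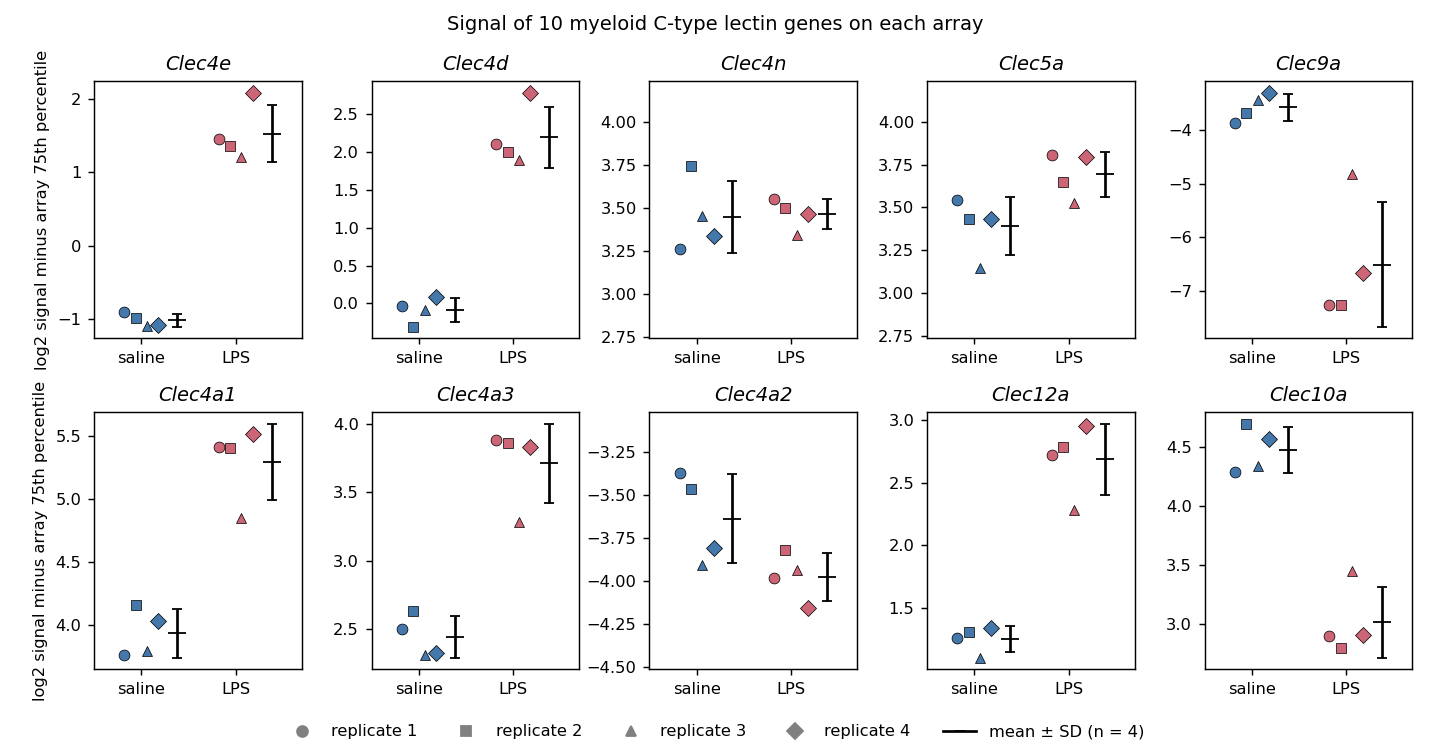
Log2 signal minus the array's 75th percentile (y axis, own range in each panel) of the 10 lectin genes on the 4 saline and the 4 LPS arrays; points are arrays and bars the mean ± SD. The LPS arrays of Clec4e (1.20 to 2.09) lie above all saline arrays (-1.08 to -0.90), those of Clec10a (2.80 to 3.45) lie below all saline arrays (4.29 to 4.70), and the groups overlap in the panels of Clec4n, Clec5a and Clec4a2.

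The sort was checked against markers. All 13 microglia genes, all 12 border macrophage genes and all 16 genes of other brain cells (neurons, astrocytes, oligodendrocytes, vessels and choroid plexus) were measured, so the CD11b+ fraction held RNA of more than 1 cell type. The median processed signal was 15.5 to 21.5 on saline and 11.7 to 17.3 on LPS arrays, with 61.9% to 66.0% and 58.6% to 63.2% of probes well above background. LPS replicate 3 stood apart: among the 11104 called genes it was the LPS array nearest to saline in 78.5%, against 5.89% to 8.31% for each of the other 3, and its median share of the group's change was 0.638, against 1.07 to 1.21. It was also the LPS array that moved least for all 8 called lectins, so values without it are given beside them. Leaving it out enlarges each of these changes for that reason. In bulk samples such as these, fewer cells of a type and less RNA per cell cannot be told apart.

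Clec4e and Clec4d rose most. Clec4e encodes Mincle, which recognises mycobacterial cord factor and a protein released by dying cells, and Clec4d encodes MCL, a receptor of the same ligand that forms a complex with Mincle. The probes are 60 bases long, and the first 30 bases of each are shown because both large increases rest on 1 probe per gene.
Clec4e, probe A_52_P161488: actggatttcacctgtacttgtatctactg
Clec4d, probe A_51_P383032: aggatttgtaaattacctggaataacattc
The Clec4e probe lies at chr6:123232878-123232937 on the minus strand, and the Clec4d probe at chr6:123224788-123224847 on the plus strand of mm9, 8.09 kb apart. They begin at base 1388 and base 837 of their transcripts. Neither shared a run of more than 15 bases with a probe of another gene.

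For Clec4e the saline arrays read -0.90, -0.97, -1.08 and -1.08, and the LPS arrays 1.46, 1.37, 1.20 and 2.09. Every LPS array was above every saline array, and LPS replicate 4 was the highest. The change was 2.54 ± 0.18, or 5.82-fold (95% interval 4.38 to 7.74), with a limma adjusted p of 0.000140. It was number 80 among the increases of all 22509 genes, and was 2.65 without LPS replicate 3. Over the 8 fits that left out 1 array it ran from 2.36 to 2.65. With normexp background correction and its offset of 50 the change was 2.02.

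For Clec4d the saline arrays read -0.04, -0.31, -0.09 and 0.08, and the LPS arrays 2.11, 2.01, 1.89 and 2.79. The groups were far apart here too, and the highest value was again on LPS replicate 4. Clec4d rose by 2.29 ± 0.19, or 4.89-fold (95% interval 3.59 to 6.66), with a limma adjusted p of 0.000282, which was number 110 among the increases. Without LPS replicate 3 it was 2.39. The rise of Clec4e exceeded that of Clec4d by 0.25 log2 units, but this did not pass an exact two-sided permutation test over the 8 arrays (p = 0.0857, adjusted over 4 pairs of lectins p = 0.114, smallest possible p = 0.0286).

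Clec4n, the gene of Dectin-2, a receptor for fungal mannans that shares the FcR gamma adaptor, did not follow. Its probe (chr6:123196969-123197028, plus strand, mm9) lies 27.8 kb from that of Clec4d. The saline arrays read 3.26, 3.74, 3.45 and 3.34, and the LPS arrays 3.55, 3.50, 3.34 and 3.47. The LPS arrays all lie within the saline range, and the change was 0.02 ± 0.11 (limma adjusted p = 0.912). The 95% interval of -0.24 to 0.28 leaves out changes of the size seen for Clec4e and Clec4d. Its sign changed with the processing, from -0.21 with quantile normalization to 0.23 with scaling to each array's median, and it passed the test in none of these settings.

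Upstream sequences of Clec4e and Clec4d, which changed alike and are neighbours, are shown with those of Clec12a and Clec9a. The probes of Clec12a and Clec9a lie near each other with that of Clec1b between them, and their measured changes had opposite signs. Clec9a was well above background on 1 of 4 LPS arrays. They are the 250 bases before the annotated start, 5′ to 3′ on the gene's strand, from RefSeq on build GRCm38.p6, which is not the build of the probe positions. Capitals mark matches to 6 motifs searched on both strands: C/EBP TTGCNNAA, PU.1 GAGGAAG, AP-1 TGANTCA, STAT TTCNNNGAA, and the longer NF-kB site and interferon-stimulated response element (ISRE).
Clec4e, chr6:123289872-123290121, minus strand: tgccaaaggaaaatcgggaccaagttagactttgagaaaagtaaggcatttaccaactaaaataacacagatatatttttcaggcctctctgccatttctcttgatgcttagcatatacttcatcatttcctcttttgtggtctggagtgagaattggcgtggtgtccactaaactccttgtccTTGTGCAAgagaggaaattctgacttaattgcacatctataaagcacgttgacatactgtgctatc
Clec4d, chr6:123261857-123262106, plus strand: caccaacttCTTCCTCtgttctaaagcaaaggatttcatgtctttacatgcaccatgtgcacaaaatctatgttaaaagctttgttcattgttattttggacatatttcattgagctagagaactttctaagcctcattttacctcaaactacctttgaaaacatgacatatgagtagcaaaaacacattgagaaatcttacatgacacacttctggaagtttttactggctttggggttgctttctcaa
Clec12a, chr6:129349994-129350243, plus strand: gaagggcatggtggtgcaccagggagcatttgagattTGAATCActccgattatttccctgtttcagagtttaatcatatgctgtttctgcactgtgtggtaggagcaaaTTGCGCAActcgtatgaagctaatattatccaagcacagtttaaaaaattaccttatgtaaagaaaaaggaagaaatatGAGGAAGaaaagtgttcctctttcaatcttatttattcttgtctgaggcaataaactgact
Clec9a, chr6:129408612-129408861, plus strand: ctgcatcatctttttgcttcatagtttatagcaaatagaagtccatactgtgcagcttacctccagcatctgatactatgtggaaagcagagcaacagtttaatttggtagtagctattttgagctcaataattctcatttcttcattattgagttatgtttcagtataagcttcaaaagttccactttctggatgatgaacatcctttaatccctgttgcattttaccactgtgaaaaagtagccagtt
The Clec4e stretch held a C/EBP match, 66 to 59 bases before the start. That of Clec4d held a PU.1 match on the opposite strand, 241 to 235 bases before the start. The Clec12a stretch held an AP-1 match, a C/EBP match that reads the same on both strands and a PU.1 match, none of them overlapping, and no letters of the 6 motifs were found in the Clec9a stretch. RefSeq entries were found for 8 of the 10 genes, with 9 starts in all. C/EBP matched in 2 of these 9 and in 9.57% of all 32817 promoters of the same length, PU.1 in 4 of 9 and 10.6%, AP-1 in 1 of 9 and 6.75%, STAT in 1 of 9 and 7.01%, and NF-kB and ISRE in 0 of 9 against 1.41% and 2.97%. A match describes letters and is not a measured site.

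Clec5a, the gene of MDL-1, a DAP12-coupled receptor of monocytes, macrophages and neutrophils that is known to bind dengue virus, was measured by 3 probes that changed by different amounts. The first 30 bases of each are given because the size of the change depends on the probe.
Clec5a, probe A_52_P218058: taccttggctgttatctcaagaaggtacaa
Clec5a, probe A_55_P2714991: ttgtgactgaaaccagcccaggaaatatag
Clec5a, probe A_51_P398376: agttgttggaatgaccttttttctgctgta
On the minus strand of mm9 chromosome 6 they lie at chr6:40527017-40527076, chr6:40527854-40527913 and chr6:40532266-40535180. The last covers 2915 bases of genome with 60 bases of probe and is assigned to another transcript variant than the first pair. The brightest probe, A_52_P218058, stands for the gene. Its saline arrays read 3.55, 3.43, 3.15 and 3.43, and its LPS arrays 3.80, 3.65, 3.53 and 3.79. LPS replicate 3 was just below saline replicate 1, so the groups overlapped.

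At this probe Clec5a rose by 0.30 ± 0.11 (limma adjusted p = 0.0468), and by 0.36 without LPS replicate 3. For probe A_55_P2714991 the saline arrays read 0.14, -0.10, -0.38 and -0.17 and the LPS arrays 0.85, 0.69, 0.45 and 0.92, with no overlap. That probe rose by 0.85 ± 0.14 (limma adjusted p = 0.00227 over 35494 probes, of which 47.5% were called, 25.7% as higher and 21.8% as lower). For probe A_51_P398376 the saline arrays read -0.73, -0.78, -1.15 and -0.89 and the LPS arrays -0.16, -0.47, -0.54 and -0.19, again without overlap, and the rise was 0.55 ± 0.13 (limma adjusted p = 0.00959). The 3 changes differed pairwise by 0.24, 0.31 and 0.55 log2 units, each with an exact permutation p of 0.0286, the smallest that 4 against 4 arrays can give, and 0.0476 adjusted over 5 probe pairs that were chosen after the values were seen.

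The call at the brightest probe was fragile. It was lost in 5 of 14 other settings, for example with a change of 0.15 when arrays were scaled over the probes detected everywhere (well above background on each of the 8) and of 0.06 after quantile normalization, and in 6 of 8 fits that left out 1 array (0.22 to 0.36, limma adjusted p 0.0242 to 0.115). The mean of the 3 probes rose by 0.57 and passed.

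**Figure D2:**
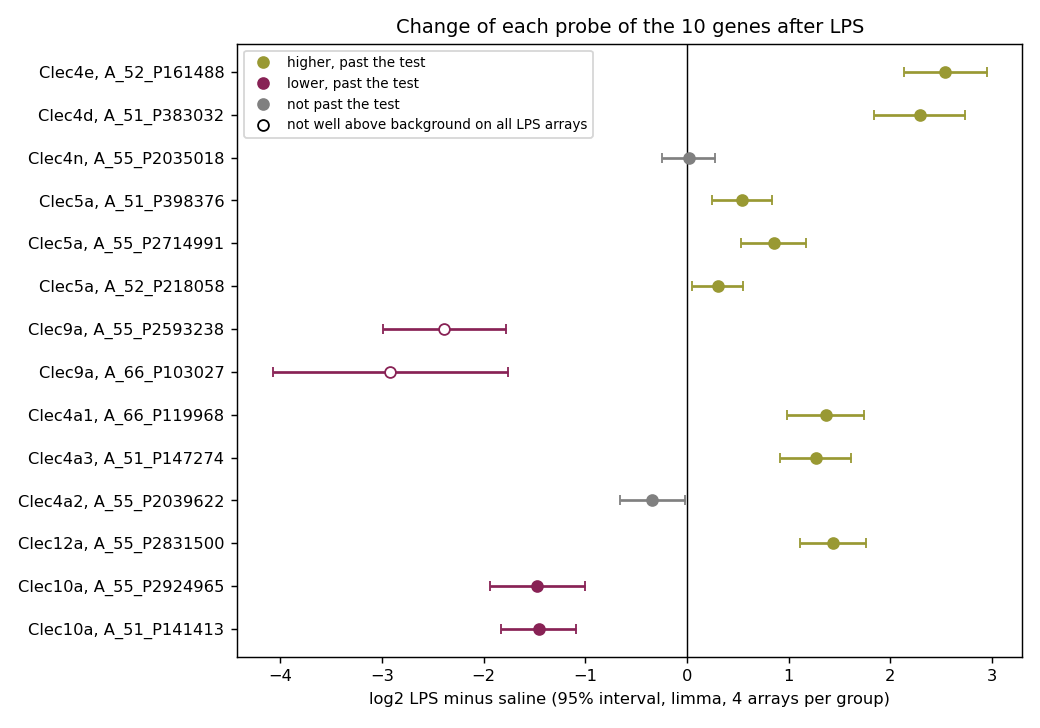
Change of each of the 14 probes (x axis, log2 LPS minus saline) with its 95% interval from limma, n = 4 arrays per group; colours give the direction of calls over all 35494 probes and open points mark probes not well above background on all LPS arrays. Of the 14 probes 8 were higher and 4 lower, both probes of Clec10a agree, and the 3 Clec5a probes run from 0.30 to 0.85.

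Of the DCIR relatives, Clec4a1 (DCIR4) and Clec4a3 (DCIR3) rose together and Clec4a2 (DCIR1) did not. DCIR proteins are lectins of dendritic cells, monocytes and macrophages, and DCIR1 is an inhibitory receptor whose loss in mice is known to raise autoimmune inflammation. For Clec4a1 (chr6:122884578-122884637, plus strand, mm9) the saline arrays read 3.76, 4.16, 3.79 and 4.03, and the LPS arrays 5.41, 5.41, 4.85 and 5.52. The groups were apart, with LPS replicate 3 below the other LPS arrays. The change was 1.36 ± 0.16, or 2.58-fold (95% interval 1.98 to 3.35), with a limma adjusted p of 0.000851, and 1.51 without LPS replicate 3.

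For Clec4a3 (chr6:122919637-122919696, plus strand, mm9) the saline arrays read 2.50, 2.63, 2.31 and 2.33, and the LPS arrays 3.88, 3.86, 3.28 and 3.83. The pattern was that of Clec4a1, LPS replicate 3 included. Clec4a3 rose by 1.27 ± 0.15, or 2.41-fold (95% interval 1.89 to 3.06), with a limma adjusted p of 0.000835, and by 1.41 without LPS replicate 3. The changes of Clec4a1 and Clec4a3 differed by 0.10, which did not pass (exact two-sided permutation test, p = 0.371).

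For Clec4a2 (chr6:123093890-123093949, plus strand, mm9) the saline arrays read -3.37, -3.46, -3.91 and -3.81, and the LPS arrays -3.99, -3.82, -3.94 and -4.16. This probe was dim, with processed signals of 9.02 to 16.3, but well above background on all 8 arrays, and the groups overlapped at their edges. The change of -0.34 ± 0.14 did not pass (limma adjusted p = 0.0740), and its 95% interval ran from -0.66 to -0.02. The probe begins at base 2425 of its transcript, and the gene has no other probe here. Relative to Clec4a3 the change was lower by 1.61 log2 units, with the smallest exact permutation p that the design allows (0.0286) and 0.0571 after adjustment over 4 pairs. Clec4a2 passed as lower with a change of -0.49 when arrays were scaled over the probes detected everywhere, with slide column as a block (limma adjusted p = 0.0421) and without saline replicate 3 (-0.43, limma adjusted p = 0.0392), and was at 0.02 with normexp.

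Clec12a, the gene of MICL, an inhibitory receptor for uric acid crystals on granulocytes, monocytes and dendritic cells, also rose. At its probe (chr6:129314367-129314426, plus strand, mm9) the saline arrays read 1.26, 1.31, 1.10 and 1.33, and the LPS arrays 2.73, 2.78, 2.28 and 2.96. The groups did not overlap, and LPS replicate 3 was the lowest of its group. The change was 1.44 ± 0.14, or 2.71-fold (95% interval 2.16 to 3.40), with a limma adjusted p of 0.000471, and 1.57 without LPS replicate 3. The probe shares a run of 18 bases with a probe of A430088P11Rik.

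Clec9a fell to the edge of detection. It encodes DNGR-1, which is known as a receptor of type 1 conventional dendritic cells for actin filaments exposed by dead cells. Both probes are shown by their first 30 bases because the gene's fall rests on dim signals.
Clec9a, probe A_66_P103027: gcaatagtctgtaacgctttgcagatttca
Clec9a, probe A_55_P2593238: gtgagaagaaggcatttggatcctgcatct
They lie on the plus strand of mm9 at chr6:129372492-129372551 and chr6:129372345-129372404. For A_66_P103027, which stands for the gene, the saline arrays read -3.88, -3.69, -3.46 and -3.32, and the LPS arrays -7.26, -7.26, -4.83 and -6.67. All 4 saline arrays were well above background and, of the LPS arrays, 1 was.

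The measured change of Clec9a was -2.92 ± 0.51 (limma adjusted p = 0.00273), and -3.47 without LPS replicate 3. At A_55_P2593238 the saline arrays read -4.52, -4.27, -4.24 and -4.51, and the LPS arrays -6.77, -6.94, -5.98 and -7.38. None of those LPS arrays was well above background, so the difference of the means, -2.39 ± 0.26 (limma adjusted p = 0.000691), is not a measured size. For a smaller estimate each LPS array was given the higher of its detection limit and the value of the probe. That limit was the dimmest signal of any probe on the array still called well above background. The signal was then 1.74-fold lower after LPS. As the limit is not that of this probe, 1.74 is not a strict bound. The size at the first probe depended on how dim signals were treated: it was -1.47 with signals floored at the lowest one above background, -1.89 with each array's median signal as a covariate, and -0.19 with normexp and its offset. Direction and call held in these 3 settings. The gene entered the test through its saline arrays, so a call that held is not support for a fall.

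Compared with Clec12a, the change of Clec9a was lower by 4.35 log2 units, with an exact permutation p of 0.0286, the smallest possible, and 0.0571 after adjustment over 4 pairs, so it did not pass. As Clec9a was not well above background on 3 of 4 LPS arrays, the size of this difference is not a measured one, and it was -1.50 with normexp. Other genes that mark type 1 conventional dendritic cells did not move one way. Of 11 such genes 10 were measured, with 3 higher and 3 lower, against 27.8% and 21.5% of all genes tested. Their median change was -0.05. Naaa (2.35) and Tlr3 (0.76) rose, and Itgae (-1.93, well above background on 3 of 4 LPS arrays) and Zbtb46 (-0.84) fell. Batf3, a transcription factor these cells depend on, rose by 0.42 ± 0.12. Xcr1, their chemokine receptor, was well above background on none of the 8 arrays. The unscaled summed signal of the list was 10487 to 11674 on saline and 15942 to 18414 on LPS arrays. Without Naaa the sums overlapped, at 8725 to 9565 and 7922 to 9402. The part of this list in the fall of Clec9a was not tested.

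Clec10a fell 2.75-fold. It encodes MGL1, a receptor of macrophages and dendritic cells for galactose and N-acetylgalactosamine, often used as a marker of alternatively activated macrophages. At its brighter probe, A_51_P141413 (chr11:69984232-69984291, plus strand, mm9), the saline arrays read 4.29, 4.70, 4.34 and 4.57, and the LPS arrays 2.90, 2.80, 3.45 and 2.91. All LPS arrays were below all saline arrays, and LPS replicate 3 lay between its group and the saline arrays. The change was -1.46 ± 0.16 (limma adjusted p = 0.000677, 95% interval of the log2 change -1.83 to -1.09), and -1.60 without LPS replicate 3. The other probe, A_55_P2924965 (chr11:69981437-69981496), changed by -1.47 ± 0.20, and the pair differed by 0.01 (exact permutation p = 0.886).

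Markers of 2 macrophage populations were lower as well. Of 12 border macrophage genes 6 fell and 1 rose, against 21.5% and 27.8% of all genes tested. Their median change was -0.53, with Lyve1 at -0.95, Folr2 at -0.87 and Mrc1, the mannose receptor, at -0.78. Ms4a6c rose by 1.85, and Cd163 at -0.16 did not pass (limma adjusted p = 0.525). The unscaled summed signal of the list was 124509 to 154405 on saline and 77599 to 115103 on LPS arrays. Of 13 microglia genes 8 fell, against 21.5% of all genes tested, with Slc2a5 (-1.87) and P2ry12 (-1.55) lowest and a median of -0.37. Their unscaled summed signals were 360727 to 374451 on saline and 288057 to 320693 on LPS arrays. Among 9 genes of type 2 conventional dendritic cells, 8 were measured, with a median of -0.60. Of these 5 fell and 1 rose, against 21.5% and 27.8% of all genes tested. Cd209a (-4.91, well above background on 2 of 4 LPS arrays) and Itgax (-1.77) fell, and Ccr7 rose by 2.39. As Cd209a passed the filter through its saline arrays, its call is not counted as support for a fall. The sums were 31891 to 36161 on saline and 19433 to 23846 on LPS arrays. Sirpa (-0.50) gave most of them, with 23997 to 26108 on saline and 15152 to 18217 on LPS arrays. Fcer1a was well above background on none of the arrays. The part of these markers in the change of Clec10a was not tested.

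Monocyte markers were mostly higher after LPS. Of 12 measured, 10 rose, against 27.8% of all genes tested. The 10 include the dim Cd177 (0.81), which is also a neutrophil gene. Their median change was 1.36, with Ly6c2 at 2.11, Plac8 at 2.06 and the chemokine receptor Ccr2 at 0.87. The summed signal of the 12 was 32075 to 36551 on saline and 50300 to 65691 on LPS arrays. Ms4a4c (0.37) gave most of it, with 25614 to 27482 on saline and 28483 to 35734 on LPS arrays. Of 14 neutrophil genes 4 rose and 1 fell, against 27.8% and 21.5% of all genes tested, with a median of 0.04. S100a8 rose by 1.59 and Stfa2l1 by 1.44, Csf3r fell by 0.23 (with scaling to each array's median it did not pass, limma adjusted p = 0.948), and Ly6g at 0.55 did not pass (limma adjusted p = 0.297). The neutrophil sums were 33952 to 52919 on saline and 42583 to 75089 on LPS arrays, which overlap. The part of either marker list in the changes of the lectins was not tested.

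The remaining marker lists concern cells outside the myeloid lineage. Of 10 lymphocyte genes 6 were measured, with a median of 0.58. Of these 4 rose and 1 fell, against 27.8% and 21.5% of all genes tested. Nkg7 rose by 1.45 and Ms4a1 by 1.09, Klrb1c fell by 0.68, and the sums were 384 to 544 on saline and 571 to 759 on LPS arrays. Cd8a and Ncr1 were well above background on none of the arrays, and Cd3g was on 1. Of the 16 genes of other brain cells 10 fell, against 21.5% of all genes tested. The median of the list was -0.63, with Rgs5 (-1.54) and Rbfox3 (-1.06) lowest. Their sums were 27168 to 70034 on saline and 13464 to 55045 on LPS arrays, mostly from the choroid plexus gene Ttr, which did not pass, and without it 8197 to 11292 and 5061 to 7023. The part of these cells in the changes of the lectins was not tested.

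Genes that signal downstream of the receptors changed in both directions. Of 19 signalling genes 7 rose and 2 fell, against 27.8% and 21.5% of all genes tested, with a median change of 0.09. Fcer1g, the adaptor of Clec4e, Clec4d and Clec4n, rose by 0.50 ± 0.12, and Card9 by 0.86 ± 0.26. Tyrobp, the adaptor of Clec5a, was at -0.16 (limma adjusted p = 0.288) and Syk at -0.002 (limma adjusted p = 0.986), neither of which passed. Ptpn6, the phosphatase recruited by inhibitory lectins, rose by 0.62 ± 0.12, the phosphatase Ptprc by 0.93 and the phospholipase Plcg2 by 0.63. The genes that fell were the kinase Src (-0.53) and Malt1 (-0.27), and neither passed as lower when arrays were scaled to their medians.

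Transcription factors known to act on myeloid lectin genes went both ways. Of 11 measured, 3 rose and 4 fell, against 27.8% and 21.5% of all genes tested, with a median of 0.005. Cebpb rose by 0.87 ± 0.11, Spi1, the gene of PU.1, by 0.42 ± 0.11, and Batf3 as above. Irf4 (-1.004), Klf4 (-0.75), Cebpa (-0.67) and Hif1a (-0.28) fell. Hif1a and Batf3 passed the test although their groups overlapped, and Hif1a lost its call with scaling to each array's median (-0.07, limma adjusted p = 0.765).

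The wider lectin family changed in both directions. Of 39 other C-type lectin genes 31 were measured, with a median of -0.21. Of these 10 rose and 12 fell, against 27.8% and 21.5% of all genes tested. The 10 include Clec16a (0.37), which was counted as a lectin by its name. Those that fell include Cd209a and Clec1a, well above background on 2 and 1 of 4 LPS arrays. Both passed the filter through their saline arrays, so their calls are not counted as support for a fall. Cd72, an inhibitory receptor of B cells that some macrophages express, rose by 4.47 ± 0.23, the activation marker Cd69 by 3.01 and Clec2d by 1.24. After Cd209a, Cd209b (-2.53), Cd209d (-2.35) and Mrc2 (-1.80) were lowest, and Clec7a, the gene of the beta-glucan receptor Dectin-1, fell by 1.30 ± 0.20.

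Along chromosome 6 the lectin genes form separate clusters. In the one from Clec4a1 to Clec4e, whose probes span 348 kb of mm9, 8 genes were measured. Of these 6 rose, against 27.8% of all genes tested: Clec4a1, Clec4a3, Clec4a4 (0.75 ± 0.18), Clec4b1 (0.89 ± 0.13), Clec4d and Clec4e. Clec4a2 and Clec4n, which did not pass, are next to each other only in the order of measured genes, between Clec4b1 and Clec4d. Their probes are 103 kb apart. In the other, from Clec12a to Clec7a over 97.4 kb, Clec12a rose, and Clec1b (-0.80 ± 0.09) and Clec7a fell with signal well above background on all arrays. Clec9a and Clec1a (-0.94 ± 0.33) were also called lower, but each was well above background on 1 of 4 LPS arrays and passed the filter through its saline arrays, so their calls are not counted as support. Clec1a lost its call with scaling to each array's median (limma adjusted p = 0.0543) and with quantile normalization (limma adjusted p = 0.0871). Clec12a lies at the edge of this group, with 40.8 kb between its probe and that of Clec1b.

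**Figure D3:**
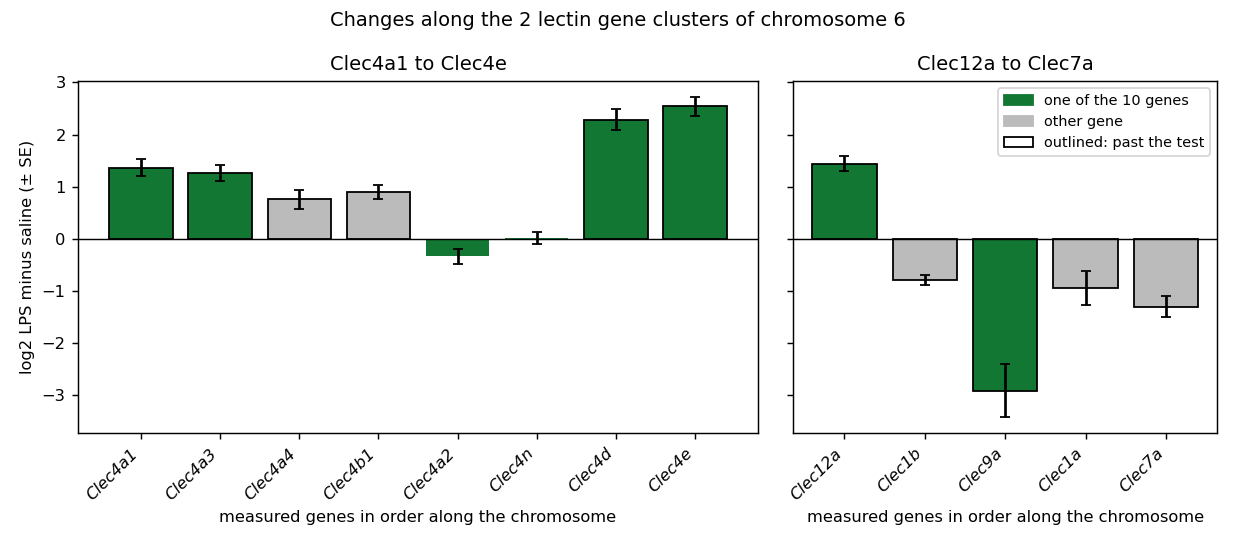
Change of the measured genes of each lectin cluster in their order along chromosome 6 (y axis, log2 LPS minus saline ± SE, limma, n = 4 arrays per group); green bars are the lectins described here, grey bars other lectin genes, and outlined bars passed the test. In the left cluster 6 of 8 genes rose, against 27.8% of all genes tested, and in the right one Clec12a rose and Clec1b and Clec7a fell. Clec9a and Clec1a were well above background on only 1 of 4 LPS arrays.

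Profiles over the 8 arrays were compared as the root mean square difference between log2 values centred on the saline mean, a description in which all genes share the same arrays. Clec4a1 and Clec12a were the closest pair of the 10 (0.109), followed by Clec4a1 and Clec4a3 (0.140), Clec4a3 and Clec12a (0.165) and Clec4d and Clec4e (0.220). The genes of the first pair lie in different clusters. Among 22499 other genes the nearest to Clec4e, the lectin with the largest increase, were Mefv (0.119, change 2.59), Pilrb2 (0.135, change 2.55) and Tnfsf13b (0.160, change 2.45). Genes near Clec9a are not given, since its values on 3 of 4 LPS arrays were not well above background.

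Scaling moved all changes together. The median change of all genes was 0.24 with scaling to each array's median and -0.13 with scaling over the probes detected everywhere, and the share of called genes that were higher was 56.4% as reported, 72.8% and 40.1%. Clec4e, Clec4d, Clec4a1, Clec4a3, Clec12a and Clec10a kept their direction and their call in all 14 other settings and in all 8 fits that left out 1 array. However, with only the 2 against 2 arrays of slide row 2, whose LPS arrays were replicates 1 and 3, no lectin passed. Of the 90 called genes of the marker, signalling, regulator and lectin lists, 16 lost their call with scaling to each array's median, 3 with scaling over the probes detected everywhere and 5 with quantile normalization, and none changed sign. Over the 14 settings Clec4e ranged from 2.02 to 2.76, Clec4d from 1.95 to 2.50, Clec12a from 1.21 to 1.65, Clec4a1 from 1.05 to 1.58, Clec4a3 from 0.95 to 1.48 and Clec10a from -1.70 to -1.24.

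**Figure D4:**
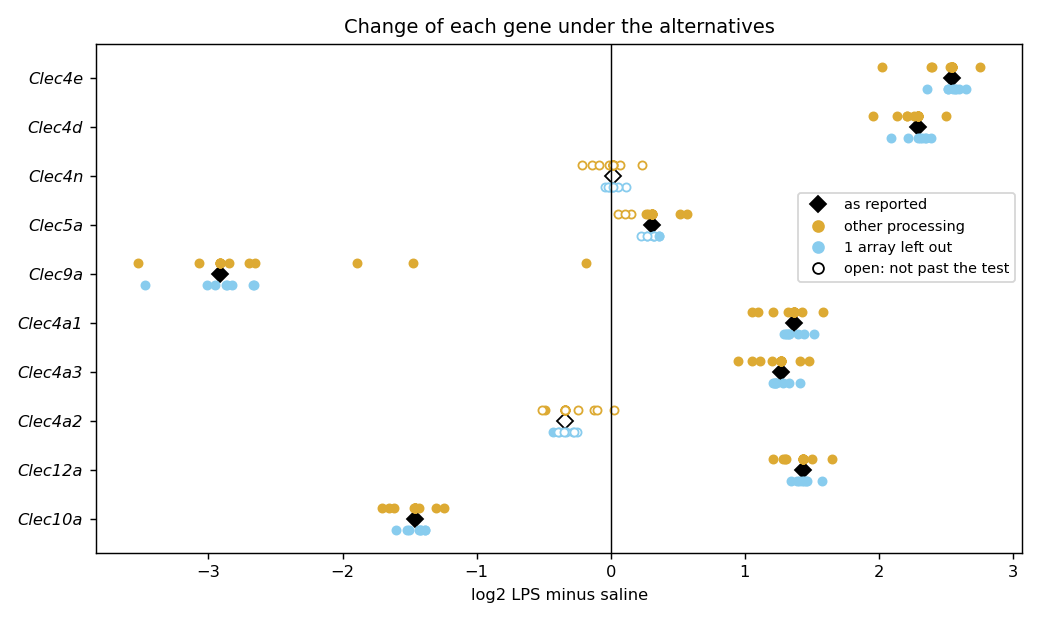
Change of each lectin gene (x axis, log2 LPS minus saline) as reported (diamonds), under other processing (upper points) and with 1 array left out (lower points); open symbols did not pass the limma test. Clec9a spreads from -3.53 to -0.19 over the processing settings, Clec4n and Clec4a2 lie on both sides of 0, and the points of Clec4e stay between 2.02 and 2.76.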

How the data were processed

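Gene expression was measured on 8 one-colour Agilent arrays, 4 saline and 4 LPS. Per the submitters' processing notes and file headers, Agilent Feature Extraction 12.0.3.1 read the scans. Its deposited intensity values are, per the file headers, background-subtracted (spatial detrending), and spots at background level carry a surrogate. The authors' deposited log2 value table, used as an alternative, followed the scanner values after per-array shifts and per-probe centring (r at least 0.999; column medians -0.07 to 0.08); its making is not stated.

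Control and outlier spots were left out, as were 6 of 56605 probes without a usable spot on every array. No probe was saturated. Probes were named through RefSeq accession (35402), symbol (9123) or synonym (25), and 12049 kept the deposited name. Scaling used the 75th percentile of each array. The 35494 probes that were well above background on 4 or more arrays entered the test, the brightest per gene was used, and groups were compared with limma 3.58.1 in R 4.3.3, checked on simulated data. The number of arrays limits precision. Lectins, lists and tests were chosen with earlier results of these data known. Named genes were all 10 lectins, up to 4 list genes per direction with the largest called changes (2 for marker lists) and 15 genes fixed by name. The lectin genes next to them on chromosome 6 were named too. So were genes that gave most of a list's summed signal, and the list genes Clec16a and Cd177. 1 further list gene is not reported here. Each tube was a separate pool of 2 mice. All arrays shared 1 slide. Figures were drawn with matplotlib 3.10.9.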

Additional observations from a re-analysis of the deposited data

Results flagged for a closer look

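Each lectin was checked in each group for an array far from the other 3 (20 groups of 4 arrays), by the gap to the nearest array as a share of the whole range, with Dixon's 95% critical value as the limit. Chance alone gives about 1 such group in 20. There were 3, all LPS replicate 3, and they are not independent since they come from 1 array. Clec4a1 was at 4.85 there, and at 5.41 to 5.52 on the other LPS arrays. Clec4a3 was at 3.28, against 3.83 to 3.88. Clec10a was at 3.45, against 2.80 to 2.91. In each case the array lay between its own group and the saline arrays, and it was the LPS array nearest to saline in 78.5% of all called genes.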

How the results depend on the processing

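Over the planned settings the 10 lectins gave 219 comparisons with the reported changes. Of these 197 kept direction and side of the threshold, 11 lost the call, 3 gained it and 8 changed sign. The sign changes were those of Clec4n (-0.14 with scaling over the probes detected everywhere, -0.21 with quantile normalization, -0.0163 with normexp, -0.0900 with each array's median signal as a covariate, and -0.0458 to 0.114 when 1 array was left out) and of Clec4a2 (0.0219 with normexp). The difference between Clec4a1 and Clec4a3 was -0.00377 with quantile normalization. Requiring signal well above background on all 8 arrays left 1 lectin called lower, since Clec9a was then not tested. Scaling to each array's median gave as lower 0 signalling genes (1 at an unadjusted limma p under 0.05), 4 microglia genes, 0 neutrophil genes (0 unadjusted) and 6 genes of other brain cells, and quantile normalization gave 7 signalling genes as lower. Leaving out 1 array gave 8730 to 13262 changed genes, 5 to 6 lectins higher, 2 to 3 lower, 0 to 2 neutrophil genes lower and 2 to 4 lymphocyte genes higher. With limma on 2 against 2 arrays, chosen after seeing the data, slide row 1 gave 5601 changed genes with 5 lectins higher and 2 lower. Slide row 2 gave 5 changed genes with 0 lectins higher and 0 lower (5 and 2 at an unadjusted p under 0.05), and Clec4n at -0.0920 there. The LPS arrays of slide row 2 were replicates 1 and 3. The causes were not tested. The labels give no replicate numbers, and those used here only name arrays in order. Each slide column held 1 array of each group with the same such number, and the fit with column as a block gave 13620 changed genes and called Clec4a2 lower (limma adjusted p = 0.0421), with no other lectin's call changed. Dim signals limit what can be said of Clec9a and Clec4a2.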
